A study of Mus musculus with 6 samples.

Results

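The genes described here encode the subunits of the proteasome, its activators and its assembly chaperones. They were taken as every mouse gene whose symbol starts with Psm, followed by a letter from a to g and a number, and this gave 50 genes of the 19935 measured. By their known roles 16 belonged to the core particle, 20 to the regulatory particles and other regulators, 5 were the interferon-induced members and 7 were assembly chaperones. The remaining 2 matches were not subunits. Psmc3ip encodes a factor of meiotic recombination and Psme3ip1 a protein that binds the activator Psme3, and both were kept out of the classes.

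RNA came from CD43-/B220+ splenic B cells of 3 wild-type (WT) and 3 Cd37 -/- (CD37KO) mice on a C57BL/6J background, with 1 array per mouse. CD37 is a tetraspanin of the B cell membrane. The labels describe the animals as littermates aged 3 months, whereas the methods give a later age at killing, and the labels name no treatment. The deletion is given as a genotype of the whole mouse, and no Cre line or promoter that would limit it to B cells is named. Cells with CD43 were depleted to isolate the B cells, B220 staining only assessed purity, and isolations with a minority of other cells were accepted. All values are log2 expression levels after RMA, in which 1 unit is a doubling of signal.

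The proteasome degrades proteins that carry ubiquitin chains. Its core particle is a barrel of alpha and beta rings, in which 3 beta subunits cut peptide bonds, and regulatory particles at its ends unfold the substrate with ATPase subunits. Under interferon gamma, and in many lymphoid cells without it, the catalytic subunits Psmb5, Psmb6 and Psmb7 are replaced in new particles by Psmb8, Psmb9 and Psmb10, which gives the immunoproteasome. Psme1 and Psme2 form an activator cap that is induced by the same signal. The peptides made in this way are loaded on major histocompatibility complex (MHC) class I molecules.

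Psmb9 and Psmb8 had the smallest unadjusted p of all members, with log2 levels higher in CD37KO cells by 0.39 and 0.22, and no member passed the adjustment over all genes. The DNA around the start sites of these genes is therefore shown here. Psme1 and the constitutive subunit Psmb5 are set beside them. Each window runs 5′ to 3′ from 250 bases before the start site to 50 bases after it and comes from RefSeq on the GRCm38.p6 build. Windows were matched by gene ID, and 42 of the 50 members had at least 1. Capitals mark matches to a gamma-activated site (TTCNNNGAA), the core of an interferon-stimulated response element (GAAANNGAAA) or an antioxidant response element of the kind bound by Nfe2l1 (TGACNNNGC), on either strand. The windows are chr17:34197945-34198244 on the plus strand for Psmb8, chr17:34187281-34187580 on the minus strand for Psmb9, chr14:55578244-55578543 on the plus strand for Psme1 and chr14:54617946-54618245 on the minus strand for Psmb5.
Psmb8: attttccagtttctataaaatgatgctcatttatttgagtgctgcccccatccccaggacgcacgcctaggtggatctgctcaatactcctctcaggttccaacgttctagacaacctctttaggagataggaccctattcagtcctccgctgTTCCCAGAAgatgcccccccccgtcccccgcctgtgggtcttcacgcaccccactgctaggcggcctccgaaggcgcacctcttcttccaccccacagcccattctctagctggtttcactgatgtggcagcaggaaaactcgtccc
Psmb9: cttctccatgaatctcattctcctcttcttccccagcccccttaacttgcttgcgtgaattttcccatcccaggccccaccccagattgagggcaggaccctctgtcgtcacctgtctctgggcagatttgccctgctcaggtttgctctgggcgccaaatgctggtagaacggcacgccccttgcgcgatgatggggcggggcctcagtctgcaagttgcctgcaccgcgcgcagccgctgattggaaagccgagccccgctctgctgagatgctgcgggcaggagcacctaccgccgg
Psme1: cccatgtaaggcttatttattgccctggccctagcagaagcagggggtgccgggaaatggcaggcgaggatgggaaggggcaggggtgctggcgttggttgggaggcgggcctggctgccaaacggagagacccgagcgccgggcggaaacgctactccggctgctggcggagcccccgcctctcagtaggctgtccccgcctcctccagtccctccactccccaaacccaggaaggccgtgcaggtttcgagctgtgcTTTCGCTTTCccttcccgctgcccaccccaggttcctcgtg
Psmb5: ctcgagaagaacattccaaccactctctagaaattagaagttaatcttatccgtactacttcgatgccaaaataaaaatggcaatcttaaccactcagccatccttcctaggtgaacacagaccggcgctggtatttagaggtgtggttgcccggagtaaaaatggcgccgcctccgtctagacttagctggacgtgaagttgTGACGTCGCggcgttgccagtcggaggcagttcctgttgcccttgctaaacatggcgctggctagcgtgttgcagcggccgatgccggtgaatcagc

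The window of Psmb8 held a gamma-activated site 97 bases before the start site, and that of Psme1 a response element core 9 bases after it. In Psmb5 an antioxidant element lay 47 bases before the start site. None of the 3 motifs was found in the Psmb9 window. The window of the chaperone gene Psmg4 held a response element core 15 bases after the start site. Over all 46 windows of members, the response element core was present in 10.9%, the gamma-activated site in 6.52% and the antioxidant element in 13.0%, against 3.44%, 8.30% and 12.4% of all 32851 promoter windows. The 5 windows with the response element core were those of Psmb3, Psmd4, Psmd9, Psmg4 and Psme1. Of the 6 windows of interferon-induced members, only 1 held it. The members' windows had a median of 19 CG dinucleotides and all windows a median of 7. A match of letters is a description and not a binding site.

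Cd37, the deleted gene, was at 11.99, 11.82 and 12.08 in the WT and at 8.15, 8.17 and 8.17 in the CD37KO arrays, and so followed the labels. As a line for background, the 95th percentile among olfactory receptor genes was used, 5.77 in log2. Cd37 was above this line in all 6 arrays, also where it was deleted, so a level above the line does not show that a gene is intact. All 9 measured B cell genes were above the line in every array, and the mean of these genes ran from 11.55 to 11.62 in WT and from 11.53 to 11.60 in CD37KO cells. Neutrophil genes were higher in the CD37KO isolates, with 12 of 12 differences positive and 11 of these at an unadjusted p under 0.05 from limma, a linear model that pools the spread over genes. Of all genes 2.96% were higher at this threshold, and no neutrophil gene passed the adjustment over all genes. The mean level of the neutrophil genes ran from 6.01 to 6.25 in WT and from 6.54 to 7.93 in CD37KO arrays. Of the 12, 5 were above background in every array. Macrophage and monocyte genes, all 14 above background, were high in WT replicate 1 and CD37KO replicates 1 and 3, with means of 10.01, 10.13 and 10.15, and lower in the other arrays, with means from 8.84 to 9.26. All 14 of their differences were positive, with a median of 0.19. Of these genes 1, Lyz2, was higher at an unadjusted p under 0.05 from limma, and none passed the adjustment. T cell genes had means from 5.77 to 5.91 with Cd3d and Cd3g not above background, dendritic cell genes means from 5.70 to 5.91 with Xcr1, Clec9a and Ccr9 not above it, and erythroblast genes means from 6.26 to 6.61 with Klf1 and Epb42 not above it. In a mixed sample, a change in the number of cells of a type and a change in the RNA per cell cannot be told apart.

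Among the 50 members 46 were above background in all 6 arrays. Psma8, the alpha subunit of the testis, and Psmb11, the catalytic subunit of thymic epithelium, were below it in every array, as was Psmc3ip. Psmg3, a chaperone of alpha ring assembly, crossed the line, with levels from 5.68 to 6.24. Levels of different probe sets are not compared with each other, since they depend on the probes as well as on the RNA.

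No member passed an adjusted p under 0.05 from limma, where 0.0552% of all genes did. At an unadjusted p under 0.05 from limma, 2 members were higher in CD37KO cells, Psmb9 and Psmb8, and none was lower. This is 4.0% of the members against 2.96% of all genes tested, or 5.10% of the genes above background in all arrays, and 0 of 50 against 2.99% for lower genes. Ordinary least squares also gave 2 higher members at an unadjusted p under 0.05, but these were Psmb5 and Psmg4, and none passed its adjustment. By ordinary least squares 2.12% of all genes were higher and 3.71% lower without adjustment. The count of higher members from limma was 1 without CD37KO replicate 1, 4 without WT replicate 3 and 6 without CD37KO replicate 2. The share of all genes that were higher moved too, to 1.91%, 2.66% and 6.48% in the same order. In 6 members every CD37KO array lay above every WT array, and in none below, where all genes gave 4.33% and 7.57%. These members were Psmb8, Psmb9, Psmb10, Psmb5, Psmd6 and Psmg4, or 13.0% of the 46 members above background, where 6.98% of all such genes did so.

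**Figure D1:**
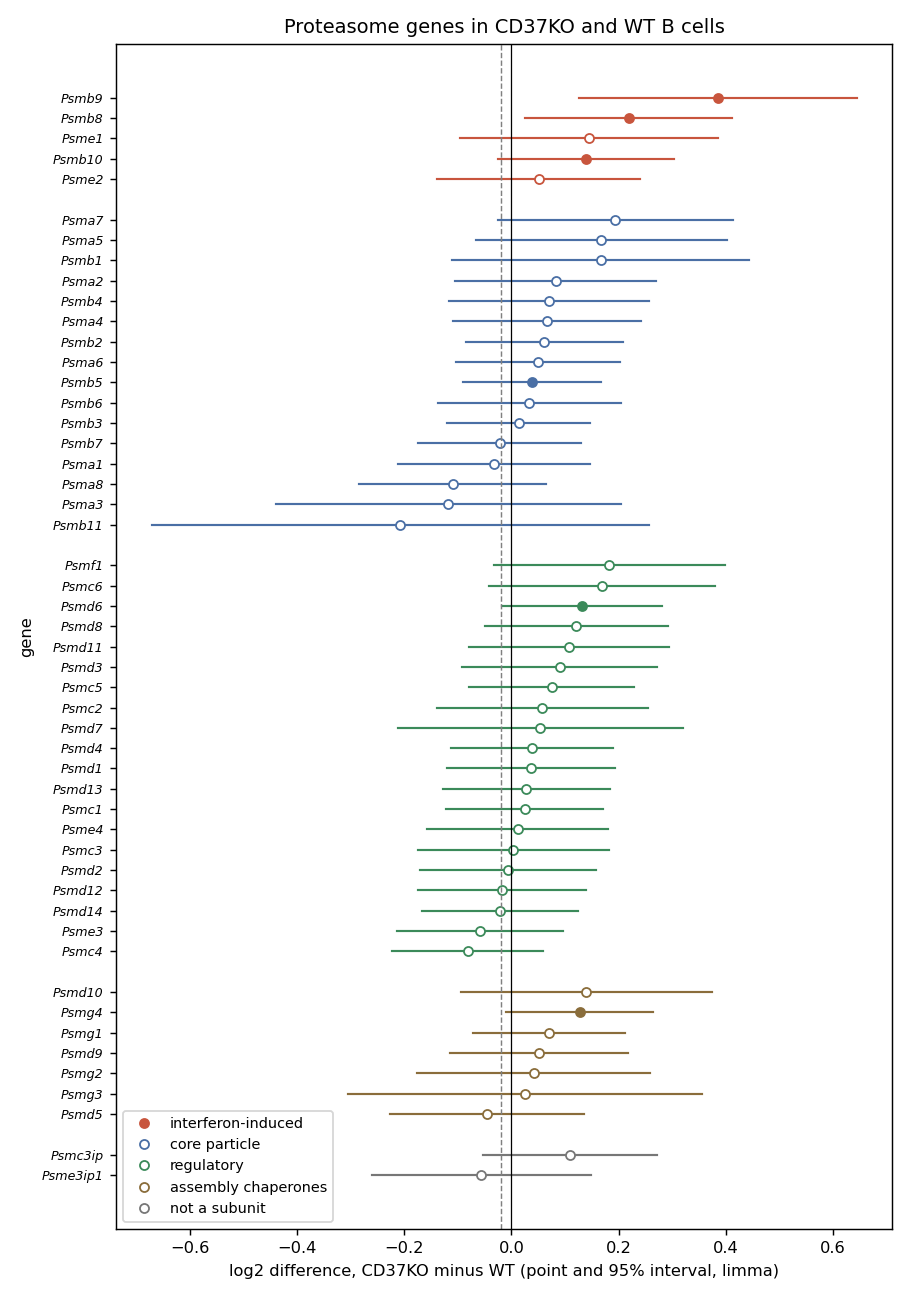
Difference in log2 level between 3 CD37KO and 3 WT arrays for the 50 genes, positive where CD37KO is higher, with the 95% interval from limma as a line and colours for the classes. Filled points are genes whose CD37KO arrays all lay above all WT arrays, the solid vertical line is at 0 and the dashed line is the median of all 19935 genes (-0.019). The interval lies above 0 for Psmb9 and Psmb8 and includes 0 for all the others.

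Psmb9 encodes the immunoproteasome subunit that takes the place of Psmb6. Its level was 8.27, 7.85 and 8.15 in WT replicates 1, 2 and 3 and 8.37, 8.46 and 8.60 in CD37KO replicates 1, 2 and 3. The groups did not overlap, and WT replicate 2 was the lowest array. The means were 8.09 ± 0.22 (SD, n = 3) and 8.47 ± 0.12 (SD, n = 3), a log2 difference of 0.39 (with a standard error, SE, of 0.11, 95% interval 0.13 to 0.65) or a fold of 1.31. Its adjusted p was 0.801 from limma. The unadjusted p was 0.00875 and stayed under 0.05 when any 1 array was left out, with a difference from 0.26 to 0.48 and the smallest value without WT replicate 2.

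Psmb8, which takes the place of the chymotrypsin-like subunit Psmb5, was at 8.05, 7.85 and 8.01 in the WT and at 8.20, 8.07 and 8.30 in the CD37KO arrays. The highest WT array and the lowest CD37KO array were apart by only 0.013. The log2 difference was 0.22 (SE 0.084, 95% interval 0.026 to 0.41, limma adjusted p = 0.801), a fold of 1.16. Its unadjusted p of 0.0308 was above 0.05 without WT replicate 2 or without CD37KO replicate 1 or 3, up to 0.113.

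Psmb10, the trypsin-like subunit that takes the place of Psmb7, was at 8.24, 8.09 and 8.24 in WT and at 8.39, 8.24 and 8.35 in CD37KO cells. Here the groups were apart by 0.0025, so the absence of overlap rests on 2 nearly equal arrays. The difference was 0.14 (SE 0.072, 95% interval -0.026 to 0.30, limma adjusted p = 0.801), and 0.089 without WT replicate 2. A two-sided permutation test, exact over the arrays, gave p = 0.10 for each of the 3 catalytic subunits, the smallest that 3 arrays against 3 allow. Any gene whose groups do not overlap gets this p. The constitutive subunit Psmb5 got it too, with a log2 difference of only 0.039.

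The activator subunits differed less. Psme1 was at 9.54, 9.15 and 9.51 in WT and at 9.50, 9.58 and 9.55 in CD37KO cells, so that all arrays but WT replicate 2 lay together. Its log2 difference of 0.14 (SE 0.10, limma adjusted p = 0.814) was 0.019 without that array. Psme2 was at 9.82, 9.66 and 9.55 in WT and at 9.81, 9.67 and 9.70 in CD37KO cells, with a difference of 0.051 (SE 0.083, limma adjusted p = 0.907) that was -0.011 without WT replicate 3. The groups overlapped for both.

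**Figure D2:**
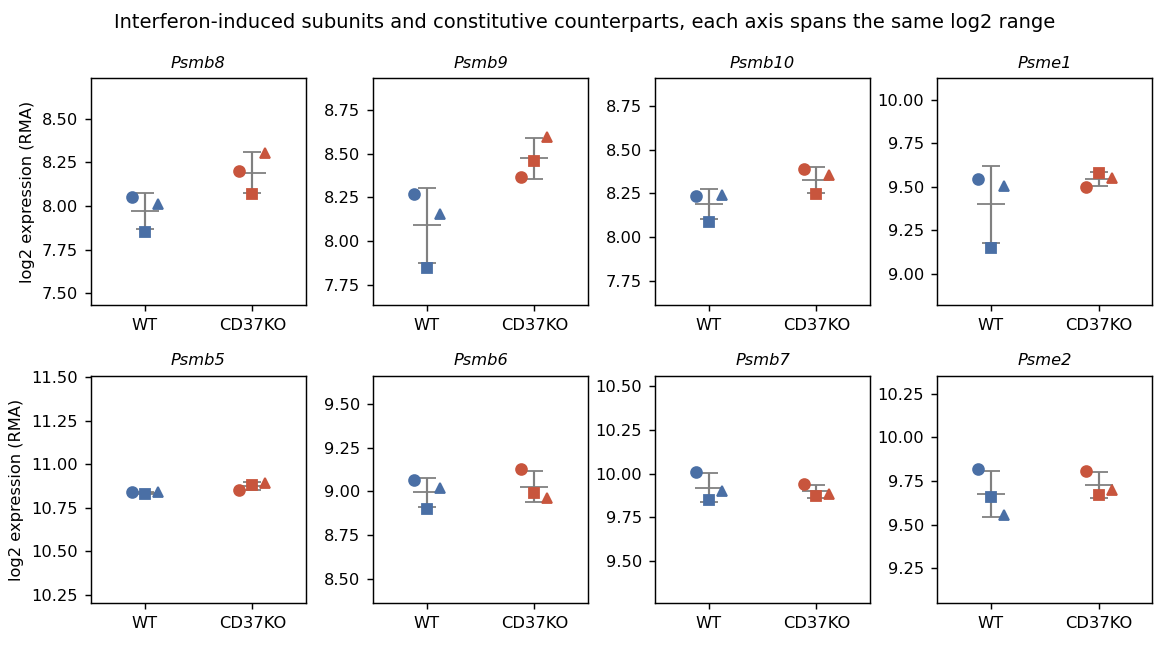
Log2 expression of the interferon-induced members and of the constitutive subunits Psmb5, Psmb6 and Psmb7 in the 3 WT (blue) and 3 CD37KO (red) arrays, with the mean and SD in grey and a circle, a square and a triangle for replicates 1, 2 and 3. Every vertical axis spans the same log2 range. The CD37KO arrays lie above all WT arrays for Psmb8, Psmb9, Psmb10 and, by 0.011, for Psmb5, and the arrays overlap in the other panels.

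Of the constitutive catalytic subunits, Psmb5 had the tightest arrays. It was at 10.84, 10.83 and 10.84 in WT and at 10.85, 10.88 and 10.89 in CD37KO cells. Although the groups did not overlap, the log2 difference was only 0.039 (SE 0.056, 95% interval -0.090 to 0.17, limma adjusted p = 0.892). Psmb6, the caspase-like subunit, differed by 0.034 (95% interval -0.14 to 0.20) and Psmb7 by -0.022 (95% interval -0.17 to 0.13). Psmb6 turned to -0.014 without WT replicate 2 and to -0.018 without CD37KO replicate 1, and Psmb7 to 0.024 without WT replicate 1.

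The immunoproteasome subunit was also read against the subunit it replaces within the same array. The log2 ratio of Psmb9 over Psmb6 was -0.80, -1.05 and -0.87 in WT and -0.77, -0.53 and -0.36 in CD37KO cells, and so was higher in all 3 CD37KO arrays, by a mean of 0.35 (two-sided exact permutation test, p = 0.10). For Psmb10 over Psmb7 the ratio was -1.77, -1.76 and -1.66 in WT and -1.55, -1.62 and -1.53 in CD37KO cells, a mean change of 0.16 with no overlap (exact permutation test, p = 0.10). The ratio of Psmb8 over Psmb5 was -2.79, -2.97 and -2.83 in WT and -2.65, -2.81 and -2.59 in CD37KO cells. These overlapped, with a mean change of 0.18 (exact permutation test, p = 0.20). With 3 pairs compared, the Benjamini-Hochberg adjusted p values were 0.15, 0.15 and 0.20. Such a ratio shows an unequal change of 2 probe sets and not the ratio of their RNAs.

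In the core particle 11 of 16 differences were positive, and their median was 0.044. Of the alpha ring, Psma7 differed by 0.19 (SE 0.096, 95% interval -0.025 to 0.41) and Psma5 by 0.17 (95% interval -0.067 to 0.40), with overlapping groups. Without WT replicate 2 these were 0.12 and 0.055, and Psma7 was also 0.12 without CD37KO replicate 3. Psma3 differed by -0.12 (95% interval -0.44 to 0.20). WT replicate 2 was at 11.26 while the other arrays lay between 10.68 and 10.90, and the same array was highest in the other two probe sets of Psma3. Without it the difference was 0.053. The non-catalytic beta subunits Psmb1, Psmb2, Psmb3 and Psmb4 differed by 0.17, 0.062, 0.014 and 0.069. Psma8 and Psmb11 differed by -0.11 and -0.21 below background. Psma3, Psma5, Psmb3, Psmc1 and Psmd2 had more than 1 probe set, of which the brightest was used, and the dimmer probe set of Psma5 gave -0.035 in place of 0.17. The second probe sets of Psmc1 and Psmd2 also had the other sign, -0.011 against 0.025 and 0.029 against -0.0057. Probe positions were not available here, so whether the brightest probe sets of Psma3 and Psma5 lie in the gene's own locus is not known.

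In the regulatory class 15 of 20 differences were positive, and their median was 0.037. The ATPase subunits Psmc1 to Psmc6 ranged from -0.081 for Psmc4 to 0.17 for Psmc6 (95% interval -0.042 to 0.38), which was 0.083 without WT replicate 3. Psmd6, a subunit of the lid, was at 8.54, 8.53 and 8.40 in WT and at 8.62, 8.58 and 8.66 in CD37KO cells. The groups of Psmd6 did not overlap, and the log2 difference was 0.13 (SE 0.065, 95% interval -0.017 to 0.28, limma adjusted p = 0.801). Psmd14, the enzyme that removes ubiquitin chains at the pore, differed by -0.022 (95% interval -0.17 to 0.12). Psmf1, an inhibitor of the core particle in vitro, was at 9.02, 9.19 and 9.01 in WT and at 9.43, 9.20 and 9.12 in CD37KO cells, a difference of 0.18 (95% interval -0.033 to 0.40) with overlapping groups. It was 0.093 without CD37KO replicate 1, the highest array. The nuclear activators Psme3 and Psme4 differed by -0.059 and 0.012. The neighbourhood of Cd37 on chromosome 7 held no member among its nearest 200 measured genes on either side, and Psmd8 and Psmc4 on that chromosome were 225 and 267 measured genes away.

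The assembly chaperones had a median difference of 0.052, with 6 of 7 positive. Psmg4, the partner of Psmg3 in alpha ring assembly, was at 7.62, 7.61 and 7.61 in WT and at 7.80, 7.69 and 7.73 in CD37KO cells. Its groups did not overlap and its log2 difference was 0.13 (SE 0.060, 95% interval -0.0095 to 0.26, limma adjusted p = 0.801). Psmd10, also known as gankyrin, and Psmd5 are chaperones of the ATPase ring. Psmd10 differed by 0.14 (95% interval -0.093 to 0.37) and Psmd5 by -0.046 (95% interval -0.23 to 0.13). The difference of Psmd10 was 0.043 without WT replicate 2 and 0.25 without WT replicate 3. Of the matches that are not subunits, Psmc3ip differed by 0.11 and Psme3ip1 by -0.056.

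The interferon-induced class had the highest median of the 4 classes, 0.14, with 5 of 5 differences positive. This median was 0.089 without WT replicate 2 and 0.22 without WT replicate 1, and Psme2 turned negative without WT replicate 3. The median of all genes was -0.019, and that of the 9874 genes above background in all arrays 0.017. Over the whole set 38 of 50 differences were positive (76.0%), against 41.8% of all genes and 57.0% of those above background. These shares are descriptions, because genes measured on the same 6 arrays move together. The positive share was 60.0% with array weights and 66.0% without WT replicate 2.

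This array was the low point of the set. WT replicate 2 held the lowest value of 23 of the 50 members, or 46.0% against 19.6% of all genes, while CD37KO replicates 1 and 3 held the highest value of 15 and 13 members, or 30.0% and 26.0% against 14.9% and 14.3% of all genes. The median deviation of the interferon-induced class from the genes' own means was -0.014, -0.23 and -0.072 in the WT arrays, in the order of the replicates. In the CD37KO arrays it was 0.11, -0.014 and 0.094. CD37KO replicate 2 and WT replicate 1 were thus at the same level by this measure. For the core particle the medians stayed between -0.062 and 0.036, and for the regulatory class between -0.052 and 0.061. The assembly chaperones were also lowest in WT replicate 2, at -0.11, and lay between -0.011 and 0.057 in the other arrays. Within groups the members above background varied with a median SD of 0.091 on the log2 scale, and all genes above background with 0.10.

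**Figure D3:**
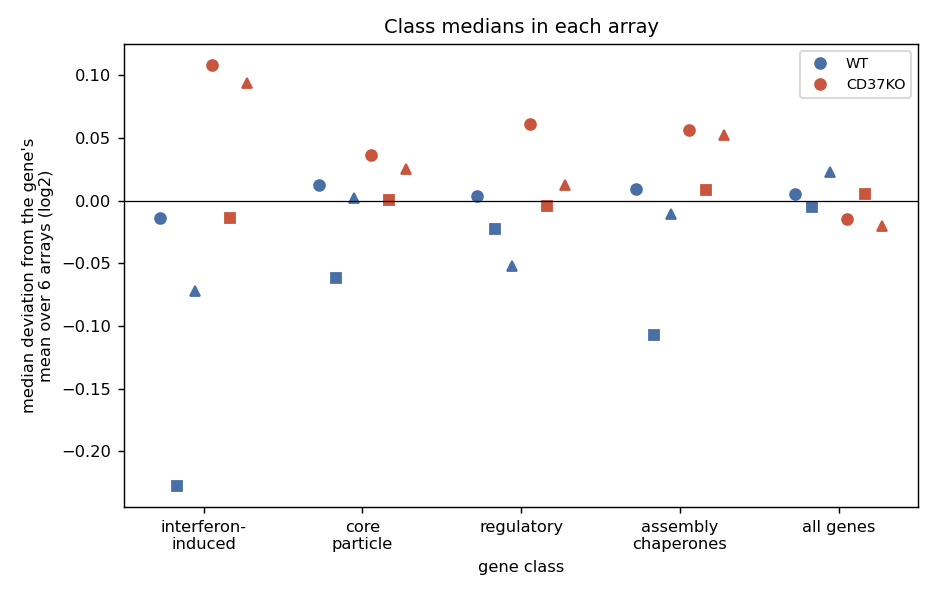
Median deviation of each class from its genes' means over the 6 arrays (log2), with 1 point per array (WT blue, CD37KO red; circle, square and triangle for replicates 1, 2 and 3). WT replicate 2 lies at -0.23 for the interferon-induced class and at -0.062 for the core particle, and all genes together lie within 0.023 of 0 in every array.

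The wider pathway was read from 3 lists of genes. Of the proteasome partners, which hold the assembly factor Pomp, ubiquitin shuttles, deubiquitinases and the transcription factor Nfe2l1, 20 of 29 were measured. By limma none passed in either direction, with or without adjustment, at 0.05, and ordinary least squares gave 0 higher and 1 lower without adjustment. Their median difference was 0.037. Nfe2l1, which drives proteasome genes when the proteasome is inhibited, differed by 0.025 (95% interval -0.15 to 0.20), and Pomp by 0.11 (95% interval -0.090 to 0.31).

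Class I antigen processing genes had the highest median difference of the 3 lists, 0.13. Of 14 measured, 5 were higher and 1 was lower at an unadjusted p under 0.05 from limma, where 2.96% and 2.99% of all genes were, and none passed the adjustment. Ordinary least squares gave 4 higher and 1 lower without adjustment. In this list 13 of 14 differences were positive. Nlrc5, the transactivator of class I genes, was at 10.19, 10.03 and 10.18 in WT and at 10.49, 10.49 and 10.53 in CD37KO cells. Its log2 difference was 0.37 (SE 0.067, 95% interval 0.21 to 0.52, unadjusted p = 0.000501 and adjusted p = 0.357 from limma), and it stayed between 0.32 and 0.40 when 1 array was left out. With the mean of its probe sets in place of the brightest it was 0.20. Each CD37KO array exceeded each WT array by more than the WT arrays differed among themselves.

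Tap1, a subunit of the peptide transporter, was at 10.02, 9.91 and 10.11 in WT and at 10.12, 10.23 and 10.27 in CD37KO cells, a difference of 0.19 (SE 0.075, limma adjusted p = 0.801). B2m, the light chain of class I molecules, differed by 0.16 (SE 0.062, limma adjusted p = 0.801). Blmh, a cytosolic aminopeptidase, differed by 0.30 (SE 0.080, limma adjusted p = 0.801). For each of these genes the groups did not overlap, in Tap1 only by the small gap between 10.11 and 10.12. Tap2, the other transporter subunit, was also higher by 0.15, and Npepps, an aminopeptidase, was lower by -0.17 (both adjusted p = 0.801 from limma), and these genes were named after their values had been seen. The count of higher genes was 2 without WT replicate 2 or without CD37KO replicate 3, and 3 without WT replicate 1 or without CD37KO replicate 1. Of all genes 3.71%, 1.52%, 2.23% and 1.91% were higher in the same order. The lower gene was lost without replicate 1 or 2 of WT and without replicate 2 or 3 of CD37KO.

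Of 20 measured genes of interferon signalling and response, 4 were higher and none was lower at an unadjusted p under 0.05 from limma, against 2.96% and 2.99% of all genes, and none passed the adjustment. Ordinary least squares gave 3 higher and 0 lower without adjustment. Their median difference was 0.068, and 16 of 20 were positive. Cxcl10, a chemokine, was at 6.43, 6.21 and 6.55 in WT and at 7.17, 6.68 and 7.38 in CD37KO cells, a log2 difference of 0.68 (SE 0.17, limma adjusted p = 0.801). Irf1, which binds interferon response elements, was at 9.06, 9.06 and 9.28 in WT and at 9.37, 9.28 and 9.48 in CD37KO cells, a difference of 0.25 (SE 0.086, limma adjusted p = 0.801), with no overlap between the groups. In Irf1 the highest WT and the lowest CD37KO array both lay at 9.28, and the mean of its probe sets gave a difference of 0.14 with an unadjusted p of 0.111 from limma. Its unadjusted p was under 0.05 in 9 of 14 alternatives. Ifit1 differed by 0.26 and Gbp3 by 0.20, again with no overlap. The levels of Ifit1 were near background (5.77), from 5.82 to 6.05 in WT and from 6.13 to 6.22 in CD37KO arrays. Ifit3, with means of 8.11 in WT and 8.07 in CD37KO cells, differed by -0.040 (95% interval -0.30 to 0.22). Without WT replicate 2 the count of higher genes was 2, where 3.71% of all genes were higher. Ifngr1, Ifngr2 and Jak2 of the interferon gamma receptor pathway differed by 0.071, 0.18 and 0.0048 and did not reach an unadjusted p under 0.05. The class I heavy chains H2-K1 and H2-D1 were not analysed here.

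**Figure D4:**
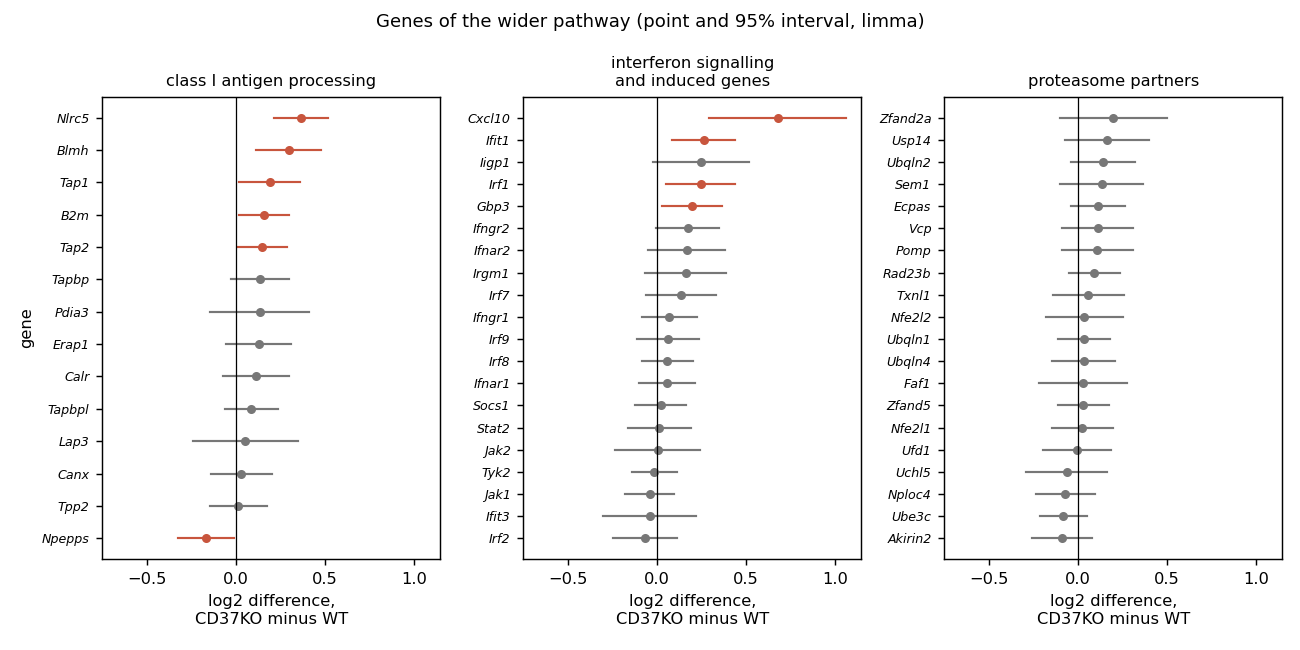
Difference in log2 level between 3 CD37KO and 3 WT arrays for the measured class I antigen processing genes, interferon genes and proteasome partners, with the 95% interval from limma as a line. Red genes have an unadjusted p under 0.05. There are 6 red genes in the first panel, of which 1 lies below 0, 4 in the second and 0 in the third.

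The values of other cell types stand beside these results. The interferon-induced members had a mean deviation of 0.045 in CD37KO replicate 2, whose neutrophil genes had a mean of 6.54, and of 0.094 in CD37KO replicate 1, whose neutrophil genes had a mean of 7.93. CD37KO replicate 3 had a mean deviation of 0.14 and a neutrophil mean of 7.24. The levels of Psmb9 and Psme1 were higher in CD37KO replicate 2 (8.46 and 9.58) than in CD37KO replicate 1 (8.37 and 9.50). Psmb8, Psmb10 and Psme2 were lower in CD37KO replicate 2, at 8.07, 8.24 and 9.67. In CD37KO replicate 1 these genes were at 8.20, 8.39 and 9.81. CD37KO replicate 2 also had the lowest macrophage and monocyte level, 8.84. The lowest neutrophil level, 6.01, and the lowest level of the interferon-induced members fell on the same array, WT replicate 2. The part of other cells in the differences of the proteasome genes was not tested. Markers of cycling cells overlapped between the groups, from 7.15 to 7.73 in WT and from 7.35 to 7.96 in CD37KO arrays. All 7 of their differences were positive with a median of 0.31, larger than that of any proteasome class, and 0 of 7 reached an unadjusted p under 0.05 from limma. Plasma cell markers overlapped too, from 8.68 to 8.80 and from 8.75 to 8.92.

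**Figure D5:**
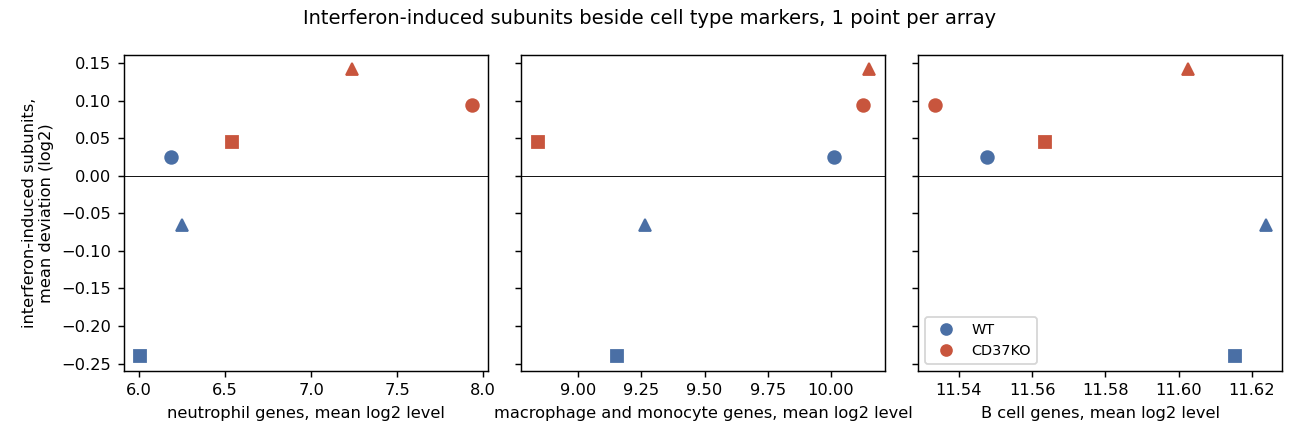
Mean deviation of the 5 interferon-induced members (log2, vertical axis) against the mean log2 level of neutrophil, macrophage and monocyte, and B cell genes (horizontal axes), with 1 point per array (WT blue, CD37KO red; circle, square and triangle for replicates 1, 2 and 3). WT replicate 2 is lowest on the vertical axis in all panels and has the lowest neutrophil level, 6.01.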

How the data were processed

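B cell RNA, 3 WT and 3 CD37KO mice, was hybridised to Affymetrix mouse gene arrays, and the authors deposited probe set values in log2. The build mm8 and RMA are named in the submitters' processing notes, RMA being a method of background correction, quantile normalization and probe summary, with its software not given in the sources used here. RMA pulls dim signals together, so differences near background are too small.

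Of 35361 probe sets, 21780 name 1 gene, 1605 several and 11976 none in the annotation used here. Symbols were updated by Entrez ID from a GRCm38.p6 gene table, which lacked the IDs of 91 probe sets. Since the files use another build, that table served only for names and gene order. The brightest single-gene probe set was kept for each of 19935 genes. The 50 members had 56 such probe sets, and 1 that also names Psme2b was left out. Promoter windows are from RefSeq.

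Groups were compared with limma 3.58.1 in R 4.3.3 (moderated two-sided test by eBayes, adjusted over all genes after Benjamini and Hochberg, threshold 0.05), tested beforehand on simulated data. Class medians are descriptions. The line for background was the 95th percentile over 1015 olfactory receptor genes, by their means. The number of arrays limits the precision.

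The members and gene lists were chosen with earlier results of these data known. Named genes were the interferon-induced and the constitutive catalytic subunits, members at an unadjusted p under 0.05 or without overlap, the 2 highest and 2 lowest differences of each class, members not above background, matches that are not subunits, and up to 4 genes per list by smallest p. Other genes were named for their role with their values known. Alternatives were centring arrays on their medians, a repeated quantile normalization, averaged probe sets, only genes above background, ordinary least squares, a robust eBayes with trend, a replicate block, array weights, each array left out, and the 90th and 99th percentile for background.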

Additional observations from a re-analysis of the deposited data

How the results depend on the processing

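No member passed an adjusted p under 0.05 in any of the 14 alternatives, from limma or from ordinary least squares where that took its place. Psmb9 kept its sign in all 14 and an unadjusted p under 0.05 in 13 of them, with ordinary least squares (0.0535) as the exception and adjusted p from 0.225 to 1.00. Psmb8 did so in 8 of 14, with an adjusted p from 0.231 to 1.00. The number of members higher at an unadjusted p under 0.05 (2) was 1 with another quantile normalization, 1 with centred arrays, 5 with array weights and 1 to 6 when 1 array was left out. Of all genes 2.38%, 2.03%, 7.23% and 1.52% to 6.48% were higher in the same order. The number lower (0) was 1 with array weights and 0 to 1 when 1 array was left out. Of all genes 10.2% were lower with array weights and 1.37% to 6.26% when 1 array was left out. By ordinary least squares 3.71% of all genes were lower, and 1.82% among genes above background only. These shares of all genes also stand beside the counts of the gene lists that follow. For the partners, the number higher (0) was 2 with array weights, 1 with the replicate block and 0 to 1 when 1 array was left out, and the number lower (0) was 1 with ordinary least squares. For class I genes, the number higher (5) was 2 with centred arrays, 3 with the replicate block and 2 to 5 when 1 array was left out, and the number lower (1) was 0 among genes above background only and 0 to 1 when 1 array was left out. For interferon genes the number higher (4) was 2 to 5 when 1 array was left out. The core median (0.044) was 0.020 with array weights and 0.026 to 0.070 when 1 array was left out. The regulatory median (0.037) was 0.013 to 0.061 when 1 array was left out and 0.017 with another quantile normalization. The interferon-induced median (0.14) was 0.089 to 0.22 and the chaperone median (0.052) 0.036 to 0.092 when 1 array was left out, and the latter was 0.031 with another quantile normalization. With array weights the sign turned for Psme2 (-0.031), Psmb6 (-0.012) and Psma3 (0.0014), and WT replicate 1 had a weight of 4.10 against 0.46 to 1.19 in the other arrays. Leaving out 1 array gave -0.011 to 0.12 for Psme2, -0.018 to 0.068 for Psmb6 (-0.014 without WT replicate 2), -0.059 to 0.024 for Psmb7, -0.23 to 0.053 for Psma3 and -0.11 to 0.0077 for Psmd5. The cause was not tested. Same-numbered WT and CD37KO arrays correlated in their deviations at 0.24, 0.0068 and -0.14, and differently numbered ones at -0.37 to 0.31. With 3 arrays per group, taken as deviations from the group's mean, these values cannot show whether the numbers paired the samples. With the replicate block 3 members were higher (Psma7, Psmb8 and Psmb9) and 4 genes in all were called against 11. At an unadjusted p under 0.05 from limma, 3.22% of all genes were higher with this block. At the 90th percentile for background (5.47) Psmb11 was no longer below it in all arrays, and at the 99th (6.40) Psmg3 was below as well.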

Other observations

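Psmb8 and Psmb9 lie in the MHC region next to the transporter genes Tap1 and Tap2, which belong to the class I list. Of the 20 measured genes on each side of Psmb9, 4 were higher at an unadjusted p under 0.05 from limma and 1 was lower, where 2.96% and 2.99% of all genes were. The higher genes were Tap1, Psmb8, Tap2 and H2-Eb2, and Btnl5-ps was the lower one. The first 3 of them were 1, 2 and 3 measured genes away from Psmb9. The class II genes H2-Ab1 and H2-Aa of the same region had log2 differences of 0.054 and -0.0017. All of these genes were named after their values had been seen.

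The share of WT replicate 2 in the results differed between genes. Without it the log2 difference of Psmb9 was 0.26 and that of Nlrc5 0.32, while that of Psme1 was 0.019.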
